A study of Mus musculus with 10 samples.

Results

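The replication-dependent histone genes were examined in mouse urothelial tumours labelled as wild type or knockout for the kinase ATM. They were taken as every gene whose symbol belongs to the numbered H1f1 to H1f6, H2ac, H2bc, H3c or H4c series, with no filter on level, which gave 59 of the 23086 genes in the deposited table. By class these were 5 linker histone H1 genes, 15 H2A, 15 H2B, 12 H3 and 12 H4 genes. RNA came from tumours of BBN963, a mouse bladder carcinoma line named after the carcinogen BBN, and both groups share that line. The ATM-WT group is 5 tumours of the line with ATM intact and the ATM-KO group is 5 tumours of the line labelled as ATM knockout, each collected at a set tumour size. The labels do not give the lesion made in Atm, the number of knockout clones, the host strain, sex or age, or whether the tumours grew in separate animals. The p-values below therefore measure the spread between these samples alone. The question was how tumours labelled ATM-KO differ in messenger RNA from those labelled ATM-WT, ATM being known for its response to broken DNA, here for the genes that supply histones to newly made DNA.

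H2A, H2B, H3 and H4 form the protein core around which DNA is wound, and H1 binds the linker DNA between cores. Cells make most of this protein in S phase, when the genome is copied, from many near-identical genes without introns that lie in clusters. Their mRNAs are known for ending not in a poly(A) tail but in a short stem-loop, which the stem-loop binding protein SLBP holds through processing, translation and decay. Some of these genes also make a longer polyadenylated mRNA, mainly in cells that have stopped dividing. A library selected for poly(A) therefore holds only part of a cell's histone mRNA, and the RNA selection used here is not given in the sources used here.

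The stem-loops are shown because they define the class and because they separate the H4 genes from the others. Of the 58 members with a GENCODE M21 transcript (GRCm38), 41 held a run of 16 bases that folds into a stem of 6 bases starting GG and a loop of 4. Of the 17 others, 9 are annotated over the coding part only, so no end could be read there. Each line gives DNA letters 5′ to 3′ with 5 bases on either side, and capitals mark the stem and loop.
H1f2: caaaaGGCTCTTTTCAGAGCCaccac
H2ac8: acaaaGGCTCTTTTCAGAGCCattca
H2ac19: aaaaaGGCTCTTTTCAGAGCCaccca
H2bc11: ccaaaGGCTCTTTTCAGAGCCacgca
H3c3: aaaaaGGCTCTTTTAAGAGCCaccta
H4c4: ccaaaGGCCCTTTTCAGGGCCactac
H4c9: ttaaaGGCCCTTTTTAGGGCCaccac
H4c2: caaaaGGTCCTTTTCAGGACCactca
The form printed for H1f2 was the commonest and occurred in 23 members of the H1, H2A, H2B and H3 classes. The form printed for H4c4 occurred in 6 members, each an H4 gene, and that of H3c3 in 5 H2B and H3 genes. H4c9 shared its form with H4c14, and H4c2 shared its form with H4c11. The stem-loop ended within 60 bases of the annotated transcript end in 21 members and further from it in 20.

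A second kind of end is shown because several of the most abundant members carry it. The annotated transcripts of 11 members held a poly(A) signal, AATAAA or its variant ATTAAA, in their last 60 bases. Each line below gives the last 30 bases of the transcript with that signal in capitals.
H1f2: ttctAATAAAaagcgtttagttttcattca
H2ac8: ccAATAAAtgggtcaatttttttcagattc
H2bc21: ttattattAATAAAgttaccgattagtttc
H4c9: tctgtttacATTAAAagtattctatgctaa
In H1f2 the annotated transcript ran on for 840 bases beyond the stem-loop, in H4c9 for 330 and in H2ac8 for 151. In H2ac19, H3c3, H4c2 and H2bc11 it ended 35, 74, 28 and 23 bases beyond it. The 1156-base annotated transcript of H2bc4 held neither element.

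Each library summed to between 20.2 and 22.3 M (mega) normalized counts, the unit of every level below. The spacing of low values put the depth at about 20.6 to 28.3 M reads, except for ATM-WT library A2 at 8.82 M, where counting error is larger. Zeros were commonest in A2 and A4 of the ATM-WT group, with 4824 and 4266 genes at 0 (2225 to 3602 elsewhere), among them 21 and 27 of the 59 histone genes. The remaining ATM-WT libraries listed 9 to 14 of them at 0 and the ATM-KO libraries 1 to 4. A4 held these zeros at an estimated 25.4 M reads, and the cause was not tested. Atm itself averaged 485 ± 183 (SD, n = 5) in ATM-WT and 455 ± 139 in ATM-KO (exact two-sided permutation p = 0.817), so its level did not check the labels. Defining markers of urothelium were low in the ATM-KO tumours, with 4 of 4 basal markers and 7 of 7 tested luminal markers lower. The basal sum was 31160 to 192552 in ATM-WT and 364 to 1093 in ATM-KO. Fibroblast markers were also lower, 4 of 4, while 0 of 4 tested leukocyte markers were higher and 1 lower, 0 of 3 endothelial markers were higher and 1 lower, and 2 of 3 erythroid markers were higher. The part of cell makeup in the histone results was not tested. In bulk tumour RNA, fewer cells of a type and less RNA per cell cannot be told apart.

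More histone genes were higher than lower in the ATM-KO tumours. The mean was higher in ATM-KO for 48 of 59 members and lower for 11. With limma on log2(value + 1) for the 44 members with a mean of at least 10, 21 rose and 2, H2bc4 and H2ac18, fell at an adjusted p under 0.05. Across all 16517 genes tested, 22.1% were called higher and 24.3% lower, against 47.7% and 4.55% of the tested members. By class, the shares called higher were 40% (H1), 62.5% (H2A), 40% (H2B), 45.5% (H3) and 50% (H4). The shares called lower were 12.5% (H2A), 10% (H2B) and 0 in the other classes. The median log2 fold change (ATM-KO minus ATM-WT) was 1.74 over tested members and 0.0047 over all genes tested. Members could pass the level filter through the ATM-KO group alone, so these shares and medians describe the members that passed and not all 59. The ATM-KO libraries lay wholly above the ATM-WT libraries in 14 of the 44 tested members, 31.8% against 17.0% of all genes tested, and wholly below in 1, 2.27% against 18.2%. Quantile normalization, which moved the median of all genes to 0.15 and their split from 3649 higher and 4017 lower to 4514 higher and 3319 lower, gave 29 members higher and 1 lower.

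**Figure D1:**
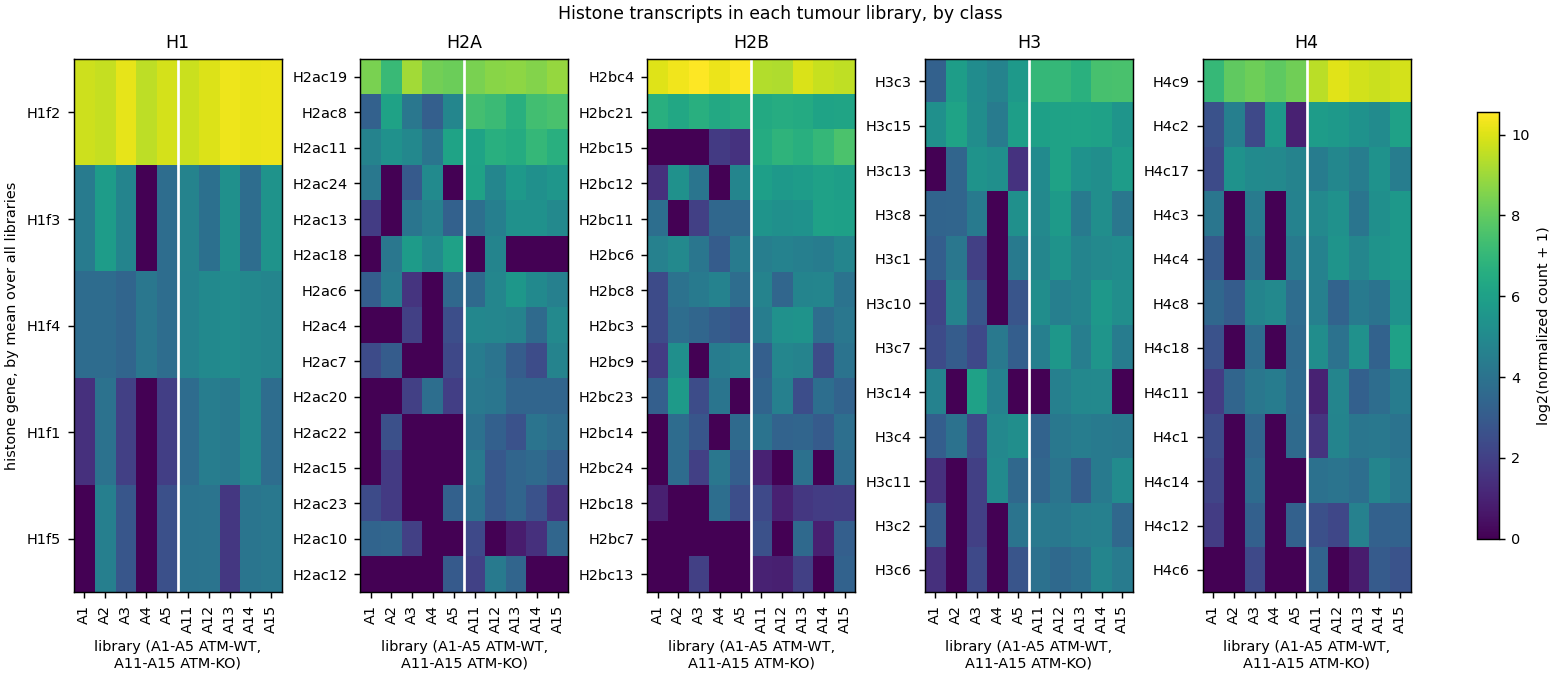
Level of each of the 59 replication-dependent histone genes (rows, grouped by class) in the 5 ATM-WT and 5 ATM-KO libraries (columns), as log2(normalized count + 1) by colour. Dark purple marks 0, which 40 members reach in at least 1 ATM-WT library and 8 in at least 1 ATM-KO library, and the yellow row of H2bc4 is higher in ATM-WT.

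Most members were scarce. Only 10 of 59 averaged at least 50 normalized counts over the 10 libraries, and 4 averaged at least 100, namely H2bc4, H1f2, H4c9 and H2ac19. Per kilobase of annotated transcript, H2bc4 was the highest of these 4 in ATM-WT at 1111, followed by H2ac19 at 616, H1f2 at 567 and H4c9 at 338. In ATM-KO the order was H4c9 at 1232, H2ac19 at 770, H1f2 at 698 and H2bc4 at 666, so that H4c9 went from last of the 4 to first and H2bc4 from first to last. The last 3 of that order lie close together beside their spread between libraries.

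Linker histone H1 genes compact the fibre between nucleosomes. Here 2 of 5 rose, H1f1 and H1f4, and none fell, with a median of 1.13. H1f2, which held 94.9% of H1 counts in ATM-WT and 92.5% in ATM-KO, measured 845, 789.6, 1136, 728 and 921 in ATM-WT libraries A1 to A5 and 843, 1003, 1236, 1158 and 1202 in ATM-KO libraries A11 to A15. The ATM-KO values lay toward the upper end but the groups overlapped, and the log2 fold change of 0.30 ± 0.14 (SE) did not pass (limma adjusted p = 0.103). It passed without ATM-WT library A3 (adjusted p = 0.0281) or without ATM-KO library A11 (adjusted p = 0.0417). H1f3 measured 20.2, 56.4, 25.8, 0 and 12.8 in ATM-WT against 25.6, 13.9, 38.1, 12.5 and 41.7 in ATM-KO (0.86 ± 0.91, limma adjusted p = 0.468). Its lowest and its highest value were both in ATM-WT.

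H1f4 had the clearest separation among the scarce H1 genes. It measured 12.3, 12.3, 9.95, 17.4 and 12.8 in ATM-WT and 24.5, 31.4, 34.3, 29.5 and 26.7 in ATM-KO, and every ATM-KO value exceeded every ATM-WT value (1.13 ± 0.35, limma adjusted p = 0.0177). H1f1 measured 1.75, 14.8, 2.99, 0 and 2.93 against 12.3, 21.3, 18.2, 29.4 and 12.5 (2.35 ± 0.70, limma adjusted p = 0.0147). The shallow library A2 held the one ATM-WT value of H1f1 inside the ATM-KO range. H1f5 averaged 6.62 ± 9.14 and 13.4 ± 6.32 and was not called. Without ATM-KO library A14, 1 H1 gene was called higher.

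H2A genes showed rises in many scarce members beside one abundant member that was not called. Of 8 tested, 5 rose and H2ac18 fell, with a median of 2.12. H2ac19, which held 69.3% of H2A counts in ATM-WT and 47.6% in ATM-KO, measured 344, 139, 539, 319 and 285 in ATM-WT and 339, 405, 435, 385 and 469 in ATM-KO. Its ATM-WT libraries spanned the whole ATM-KO range (0.44 ± 0.28, limma adjusted p = 0.226), and without ATM-WT library A3 it was called higher (adjusted p = 0.0481). H2ac8 measured 8.76, 66.8, 17.0, 8.24 and 27.4 in ATM-WT and 165, 144, 99.4, 164 and 182 in ATM-KO. Each ATM-KO library exceeded each ATM-WT library for H2ac8, the nearest being the shallow A2 (2.90 ± 0.50, limma adjusted p = 0.000459).

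H2ac4 was at 0 in ATM-WT libraries A1, A2 and A4 and measured 3.01 in A3 and 4.86 in A5, against 28.5, 27.8, 25.6, 11.6 and 30 in ATM-KO. Its groups did not overlap (3.70 ± 0.68, limma adjusted p = 0.000692). Among the other risers, H2ac11 went from 35.9 ± 20.3 to 97.3 ± 21.6, H2ac24 from 11.3 ± 13.6 to 45.5 ± 14.3 and H2ac6 from 8.07 ± 7.81 to 28.1 ± 13.1. H2ac13, at 10.3 ± 9.79 and 29.1 ± 11.5, missed the threshold (limma adjusted p = 0.0537).

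The fall of H2ac18 cannot be separated from H2ac19. H2ac18 measured 0, 17.4, 54.0, 32.9 and 65.4 in ATM-WT and 0, 25.9, 0, 0 and 0 in ATM-KO (-3.27 ± 1.26, limma adjusted p = 0.0499), and the call was lost in 14 of 19 alternatives, with adjusted p from 0.00429 to 0.131 over them. Of the windows of 31 bases in the H2ac19 transcript, 100% also occurred in H2ac18, so reads of these neighbours on chromosome 3 can be split between them in either way. Their sum was 359 ± 155 in ATM-WT and 412 ± 50.5 in ATM-KO, which overlap.

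H2B genes held both the largest level and the largest rise. Of 10 tested, 4 rose and H2bc4 fell, with a median of 0.56. H2bc4 held 85.9% of H2B counts in ATM-WT and 63.7% in ATM-KO. It measured 1039, 1273, 1495, 1200.0 and 1416 in ATM-WT and 651, 632, 999.9, 811 and 752 in ATM-KO. Every ATM-KO value was below every ATM-WT value, with means of 1285 ± 179.6 and 769 ± 148 (-0.75 ± 0.14, limma adjusted p = 0.00101). H2bc21, the next by level, measured 100.1, 78.6, 98.5, 81.2 and 94.4 against 84.9, 90.5, 86.9, 68.8 and 70.2. Those ranges overlapped through most of their width (-0.17 ± 0.21, limma adjusted p = 0.532), with an approximate 95% interval from -0.59 to 0.24, and quantile normalization turned the sign to 0.38.

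H2bc15 was close to absent from ATM-WT tumours. It was listed at 0 in A1, A2 and A3 and measured 2.47 in A4 and 1.95 in A5, against 89.7, 114, 101, 130.3 and 188 in ATM-KO. The means of 0.883 ± 1.22 and 125 ± 38.7 gave a log2 fold change of 6.25 ± 0.52 (limma adjusted p = 1.79e-06), a size that depends on the pseudocount at so low a level. Of its windows of 31 bases, 74.6% also occur in H2bc12, and the sum of both genes still went from 17.8 ± 16.7 to 183 ± 40.0 with no overlap. H2bc11 measured 13.1, 0, 3.02, 10.7 and 10.7 against 42.9, 38.1, 40.8, 64.1 and 62.9 (3.05 ± 0.69, limma adjusted p = 0.00285). Its own values did not overlap, but it shares 66.7% of its windows with H2bc23, and their sum, 23.8 ± 18.1 and 61.6 ± 13.2, overlapped through ATM-WT library A2. H2bc12 was called higher at 17.0 ± 17.0 and 58.6 ± 5.24. It shares 67.9% of its windows with H2bc23, and their sum was 33.3 ± 33.9 and 70.5 ± 6.22, with A2 at 92.9 above every ATM-KO library. H2bc3 rose from 8.01 ± 3.25 to 26.5 ± 13.4, while H2bc6, H2bc8, H2bc9 and H2bc23 stayed between 11.9 and 23.2 in both group means and were not called.

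H3 genes, which encode the core histone whose tail carries many regulatory marks, had no dominant member. Of 11 tested, 5 rose and none fell, with a median of 1.88, and quantile normalization gave 9 higher. H3c3 measured 8.76, 57.0, 34.0, 25.5 and 50.8 in ATM-WT and 131, 131, 102, 177 and 179.8 in ATM-KO. The groups stood apart (2.21 ± 0.44, limma adjusted p = 0.00135), and the share of H3 counts held by H3c3 was 17.8% in ATM-WT and 31% in ATM-KO. H3c15, the next by level, measured 38.6, 69.0, 34.9, 19.8 and 58.9 against 62.3, 65.6, 69.2, 65.1 and 43.7 (0.56 ± 0.36, limma adjusted p = 0.215). Those groups overlapped, and the sum of H3c15 with H3c14, whose windows it shares in 64.2% of cases, was 67.2 ± 20.6 and 77.7 ± 23.7.

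H3c10 measured 3.48, 25.1, 6.03, 0 and 5.80 in ATM-WT against 34.5, 22.2, 26.2, 47.7 and 35.5 in ATM-KO (2.56 ± 0.73, limma adjusted p = 0.0116). Only library A2 of the ATM-WT group reached the ATM-KO range of H3c10. It shares 85.3% of its windows of 31 bases with H3c11, which was not called at 9.48 ± 13.2 and 17.2 ± 9.98. The sum of H3c10 and H3c11 was 17.6 ± 11.1 and 50.5 ± 16.4, without overlap. H3c2 measured 7, 0, 3, 0 and 15.6 against 18.4, 17.6, 22, 23.2 and 10.8 (2.42 ± 0.80, limma adjusted p = 0.0245), and lost its call in 6 of 19 alternatives, with adjusted p up to 0.0846. H3c1 rose from 9.54 ± 8.61 to 32.0 ± 6.17 and H3c7 from 8.36 ± 5.77 to 31.4 ± 13.3. H3c13, at 18.3 ± 20.1 and 45.8 ± 14.2, missed the threshold (limma adjusted p = 0.0525), and H3c4 averaged 18.4 ± 13.8 and 16.9 ± 4.57.

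H4 genes, which encode the partner of H3 in the core, held the best separated abundant member. Of 10 tested, 5 rose and none fell, with a median of 2.13. H4c9 measured 134, 252, 293, 242 and 308 in ATM-WT and 707, 1086, 914, 838 and 931 in ATM-KO. The lowest ATM-KO value was more than the highest ATM-WT value, and the means of 246 ± 68.4 and 895 ± 139 gave 1.90 ± 0.21 (limma adjusted p = 1.78e-05). H4c2 measured 5.22, 22.7, 4.03, 50.6 and 0.968 against 55.9, 49.2, 40.5, 32.7 and 64.9 (2.35 ± 0.76, limma adjusted p = 0.0222). ATM-WT library A4 lay within the ATM-KO range of H4c2.

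H4c14 was at 0 in A2, A4 and A5 and measured 3.51 in A1 and 11.9 in A3, against 14.3, 15.7, 12.9, 26.8 and 17.8 in ATM-KO (2.99 ± 0.78, limma adjusted p = 0.00733). H4c4 measured 7.02, 0, 14.9, 0 and 19.6 against 24.5, 43.5, 27.4, 42.0 and 48.1 (2.93 ± 0.87, limma adjusted p = 0.0144). The groups of both genes were apart, by little. H4c18 was called higher at 5.79 ± 5.94 and 32.3 ± 21.8, but shares 85.3% of its windows of 31 bases with H4c17, which was not called at 26.5 ± 13.5 and 26.4 ± 8.73. The sum of H4c18 and H4c17 was 32.2 ± 13.7 and 58.6 ± 15.9, and the groups of that sum overlapped. H4c8 and H4c11 had group means of 12.4 to 21.7 and were not called. Without ATM-KO library A15, which also took H4c2 over the threshold (adjusted p = 0.0531), 2 H4 genes were called higher.

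**Figure D2:**
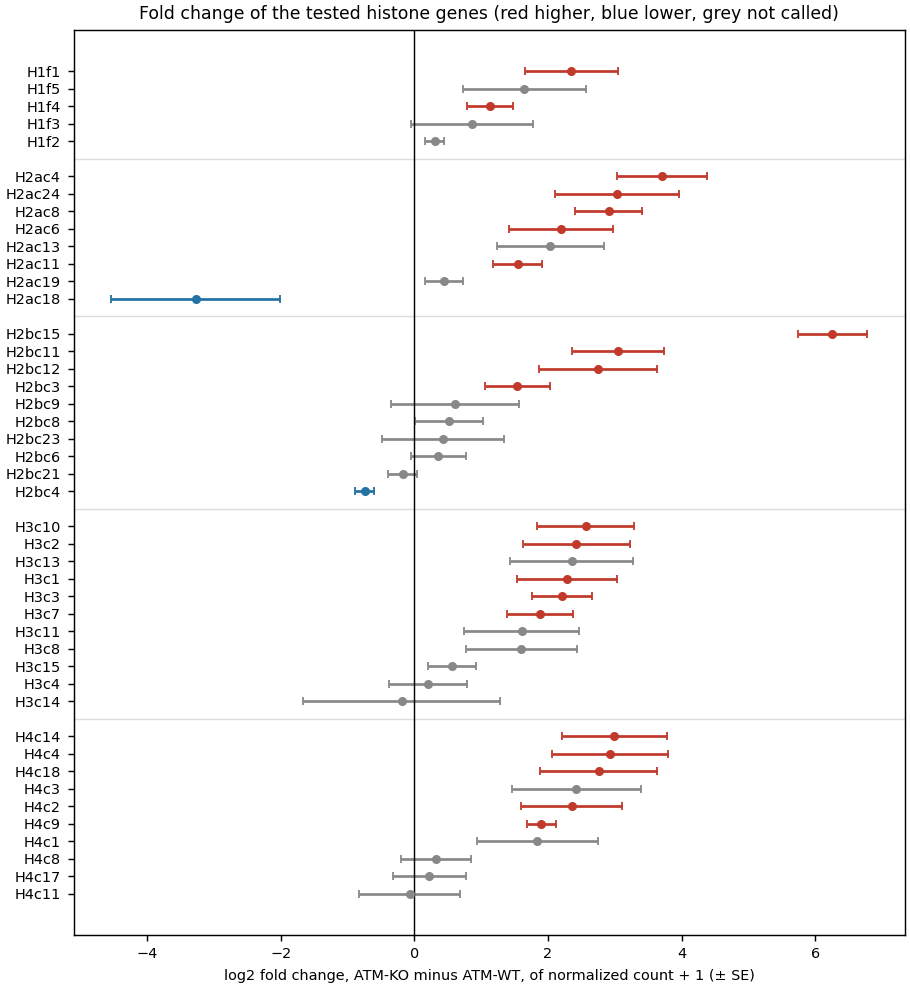
Log2 fold change (ATM-KO minus ATM-WT, on log2(normalized count + 1)) of the 44 tested histone genes by class, with bars of 1 SE. Red points were called higher, blue points lower (adjusted p under 0.05) and grey points neither. H2bc15 stands at 6.25, the 2 falls are H2bc4 at -0.75 and H2ac18 at -3.27, and the 21 red points lie above 0.

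Summed over a class, the direction differed between H2B and the other classes, and 1 gene set the H2B direction. H4 sums in ATM-WT libraries A1 to A5 were 196, 333, 454, 374 and 435, and those in ATM-KO libraries A11 to A15 were 928, 1344, 1139.9, 1088 and 1287. The H4 groups did not overlap, and the ratio of means was 3.23, or 2.33 without H4c9. H3 sums were 197 ± 51.2 and 465 ± 70.7, a ratio of 2.36 with no overlap. H2A sums were 469 ± 133 and 854 ± 58.3, a ratio of 1.82 with no overlap, and 3.11 without H2ac19. H1 sums were 931 ± 159 and 1176 ± 171 and overlapped.

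H2B sums were 1198, 1564, 1674, 1401 and 1636 in ATM-WT and 1042, 1062, 1445, 1228 and 1263 in ATM-KO. They overlapped, with a ratio of means of 0.808. Without H2bc4 they were 210.2 ± 50.4 and 439 ± 44.9, a ratio of 2.09 with no overlap, so the sign of the H2B sum rested on that one gene. All 59 members together summed to 3451 ± 544 and 4861 ± 471, a ratio of 1.41 with overlap, and to 2166 ± 369.6 and 4092 ± 405, a ratio of 1.89 without overlap, once H2bc4 was left out. A sum over members gets no test.

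**Figure D3:**
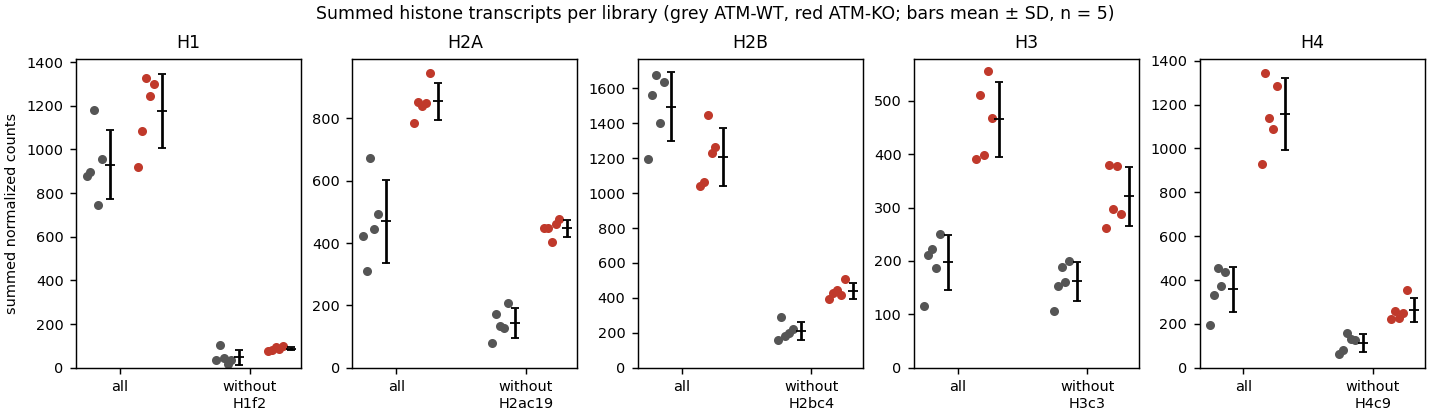
Summed normalized counts of each histone class in each library (grey points ATM-WT, red points ATM-KO, 5 each) with bars of group mean ± SD, for all members and without the member of the highest mean. Each class has its own axis from 0. H4, H3 and H2A sums are higher in all 5 ATM-KO libraries than in any ATM-WT library, and the H2B sum is so only without H2bc4.

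The annotated end of the transcript was set beside the change. Of 11 members with a poly(A) signal at the annotated end, all tested, 3 rose and none fell, with a median log2 fold change of 0.36. Of 20 members whose stem-loop lies within 60 bases of the end and that lack the signal, 14 were tested, 10 rose and 1 fell, with a median of 2.32. Of 12 with the stem-loop further in and no signal, 11 were tested, 5 rose and none fell, with a median of 1.13. Of the 16 others, in which neither was found, 8 were tested, 3 rose and 1 fell, with a median of 2.19. They include the 9 members annotated over the coding part only and H2bc24, which had no transcript. No end could be read for those, so this last group is not a kind of end. In that order, 27.3%, 71.4%, 45.5% and 37.5% of the tested members were called higher, against 22.1% of all genes tested. The share with a poly(A) signal is thus near that of all genes. Called lower were 0, 7.14%, 0 and 12.5%, against 24.3%. These groups also differ in level and in how many members were tested, and the difference between them was not tested. Among RNAs listed here as carrying little or no poly(A), a list that may not be of one kind, 0 of 6 tested rose. Malat1 fell from 25241 ± 6552 to 17177 ± 3162 (limma adjusted p = 0.0328). Rn7s1, the RNA of the signal recognition particle, measured 0, 0, 244, 121 and 222 in ATM-WT and 354, 270.2, 224, 256 and 826 in ATM-KO and did not pass (limma adjusted p = 0.054). Rpph1, at 33.7 ± 29.9 in ATM-WT and 73.0 ± 32.8 in ATM-KO, did not pass either (limma adjusted p = 0.0654). The log2 fold change was above 0 in 4 of the 6 and below 0 in the others. The part of RNA selection in the histone results was not tested.

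By position, 49 of the 58 members matched to RefSeq lie on chromosome 13 and 9 on chromosome 3. On chromosome 13, 20 of 37 tested rose and 1 fell, with a median of 1.88. On chromosome 3, 1 of 7 tested rose and 1 fell, with a median of 0.44. The shares called higher were 54.1% and 14.3%, against 22.1% of all genes tested. Because the genes are near-identical, read assignment matters. A median of 40.1% of a member's windows of 31 bases occurred in no other annotated transcript. In the 20 members with at least 50% such windows, 8 rose and 1 fell with a median of 1.34, and in the 38 others 13 of 24 tested rose and 1 fell with a median of 2.12.

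Many H2A and H2B genes are known to lie head to head and to share the DNA between their starts. By the RefSeq order of protein-coding genes there were 10 neighbouring H2A-H2B pairs, and in 7 both means were higher in ATM-KO. Both genes were called higher in 2 pairs, H2ac11 with H2bc11 and H2ac4 with H2bc3. In the pairs holding H2ac7, H2ac12, H2ac13, H2ac15, H2ac20 and H2ac23, a gene was too low to be tested. Those pairs could not count as both called. Of all genes tested, 22.1% were called higher. Partners also differed. H2ac6 rose beside H2bc4, which fell, and H2ac8 went from 25.6 to 151 beside H2bc8, which was at 15.1 and 20.7 and not called. H2ac15, the partner of H2bc15, had means of 0.502 and 10.8, too low to be tested.

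Promoters of 300 bases, from 250 before to 50 after the annotated start, were read from RefSeq (GRCm38.p6) for 53 members, 54 promoters in all. They are shown for H2bc15, the largest rise, for H2bc8, whose window overlaps that of H2ac8, and for H4c9, the most abundant riser. Capitals mark the letters CCAAT of the CCAAT box, TATAAA of the TATA box and ATTTGCAT of the octamer motif. These letters were searched on both strands, so that a match on the other strand shows as the reverse complement. A match counted anywhere in the window, at any distance from the start, so a marked TATAAA need not be a TATA box. It begins at base 208 of the window in H2bc8, at base 61 in H2bc15 and at base 114 in H4c9. No 2 of these motifs overlap each other in the windows shown.
H2bc15, chr13:21753826-21754125, plus strand: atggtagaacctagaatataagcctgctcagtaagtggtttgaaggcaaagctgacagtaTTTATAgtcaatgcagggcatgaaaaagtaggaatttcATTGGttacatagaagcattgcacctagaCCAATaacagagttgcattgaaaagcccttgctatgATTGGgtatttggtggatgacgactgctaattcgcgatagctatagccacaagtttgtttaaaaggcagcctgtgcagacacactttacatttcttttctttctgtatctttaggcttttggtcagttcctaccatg
H2bc8, chr13:23571150-23571449, plus strand: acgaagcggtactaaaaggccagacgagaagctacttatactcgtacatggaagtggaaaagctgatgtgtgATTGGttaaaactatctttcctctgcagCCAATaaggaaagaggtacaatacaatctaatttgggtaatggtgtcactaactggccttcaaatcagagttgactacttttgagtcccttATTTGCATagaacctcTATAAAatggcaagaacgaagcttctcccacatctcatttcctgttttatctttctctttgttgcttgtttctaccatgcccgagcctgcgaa
H4c9, chr13:22041313-22041612, minus strand: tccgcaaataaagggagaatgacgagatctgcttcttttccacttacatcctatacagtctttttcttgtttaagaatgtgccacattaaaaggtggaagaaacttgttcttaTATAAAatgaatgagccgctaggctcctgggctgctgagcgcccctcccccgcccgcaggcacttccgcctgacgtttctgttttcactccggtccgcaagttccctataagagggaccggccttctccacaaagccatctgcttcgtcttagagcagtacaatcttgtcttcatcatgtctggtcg
CCAAT was present in 46 of the 54 promoters (85.2%), against 37.4% of all 32851 promoters. By class it was found in each of the 43 windows of H1, H2A, H2B and H3 genes but in 3 of 11 H4 windows (27.3%). TATAAA was present in 30 of 54 (55.6%) against 13.6%, and the octamer in 11 of 54 (20.4%) against 1.74%. The octamer occurred in 5 of 15 H2A and 6 of 13 H2B windows and in none of the 26 others. The windows of H2bc8 and H2ac8 share most of their bases, including the octamer, and the values of these genes differed as given above.

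The 15 remaining members averaged under 10 over the 10 libraries and were not tested. H2bc7 was listed at 0 in every ATM-WT library and measured 5.09, 0, 11.3, 0.887 and 8.17 in ATM-KO. H2ac22 averaged 1.00 ± 2.24 and 11.3 ± 4.37, H2ac7 3.14 ± 3.18 and 14.7 ± 8.67, and H3c6 2.32 ± 2.58 and 17.1 ± 6.24. Of the 15, H2ac22, H3c6 and H2ac15 had no overlap between the groups, H2ac15 with ATM-WT values up to 2.51 and ATM-KO values from 6.47. Among all genes tested, which leave out these low members, 17.0% had ATM-KO wholly above ATM-WT. So few members, with values near the floor, do not set the 15 apart from that share. H2ac10, H2bc24 and H2bc18 were the low members with a lower ATM-KO mean, all between 2.54 and 8.11 in both groups.

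Histone genes listed as variants, most of them known to be expressed outside S phase, did not move one way. Of 12 tested, 4 rose (33.3%) and 5 fell (41.7%), with a median of -0.02. Among all genes tested, 22.1% rose and 24.3% fell. H2az1, encoding the H2A.Z variant found at promoters, rose from 9389 ± 1362 to 22045 ± 1640.4 (1.24 ± 0.12, limma adjusted p = 4.88e-06). Cenpa, the H3 variant of centromeres, rose from 1885 ± 108 to 2707 ± 63.3. Macroh2a2 fell from 139 ± 17.3 to 56.1 ± 1.41 and H2bu2, an H2B gene of a small separate histone cluster, from 47.6 ± 20.6 to 3.24 ± 2.83. These 4 genes were named for the smallest p in the list, and in each the groups did not overlap. Over all 12, ATM-KO lay wholly above ATM-WT in 25% and wholly below in 41.7%. Among all genes tested these shares were 17.0% and 18.2%.

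Genes that make, process and degrade histone mRNA were mixed. Of 29 tested, 8 rose (27.6%) and 3 fell (10.3%), with a median of 0.04. The share that rose is near the 22.1% of all genes tested, of which 24.3% fell. Those with the smallest p were Cstf2, a subunit of the 3′ cleavage machinery (1388 ± 224 to 2822 ± 134), and Ncbp1, a cap-binding protein (1739 ± 352 to 3780.0 ± 178). They were followed by Ccne2, a cyclin that activates CDK2 at the start of S phase (368 ± 80.3 to 922 ± 69.2), and Casp8ap2, a component of histone locus bodies (460.5 ± 172 to 1196 ± 249.5). Slbp, the stem-loop binding protein, rose from 1512 ± 196 to 2004 ± 192 (0.41 ± 0.11, limma adjusted p = 0.00901). Npat, the activator of histone transcription, was not called at 637 ± 99.5 and 748 ± 104 (limma adjusted p = 0.187). Slbp and Npat were named for their role, with values already seen.

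Chaperones that carry and deposit new histones rose in 17 of 29 tested genes and fell in 2, with a median of 0.49. These are 58.6% and 6.90%, against 22.1% and 24.3% of all genes tested. Asf1b, which hands H3 and H4 to the replication fork, rose from 357 ± 39.5 to 1104 ± 111 (1.63 ± 0.12, limma adjusted p = 5.77e-07). Chaf1a, a subunit of chromatin assembly factor, rose from 864 ± 107 to 2208 ± 155. Mms22l, which acts at damaged forks, rose from 319.5 ± 67.8 to 1136 ± 41.6, and the H3-H4 chaperone Dnajc9 from 581 ± 105 to 1791 ± 171. Without ATM-WT libraries A2 and A4, 1 chaperone was called lower.

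The S phase reference genes, used as a measure of replicating cells, rose in 22 of 22 cases with a median of 1.14. That is 100% called higher and 0 lower, against 22.1% and 24.3% of all genes tested. Their summed level was 23264 to 36035 in ATM-WT and 51610 to 58567 in ATM-KO, with no overlap. Ccna2, the S phase cyclin, rose from 1891 ± 269 to 5152 ± 299, and Cdc45, part of the replicative helicase, from 358 ± 35.2 to 1043 ± 135. Gins2 and Mcm4, of the same helicase, rose from 611 ± 159.9 to 1916 ± 55.4 and from 1143 ± 197 to 2840.1 ± 346. In the same comparison 21 of 44 tested histone genes rose and H2bc4 and H2ac18 fell, and the part of these S phase genes in the histone results was not tested.

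**Figure D4:**
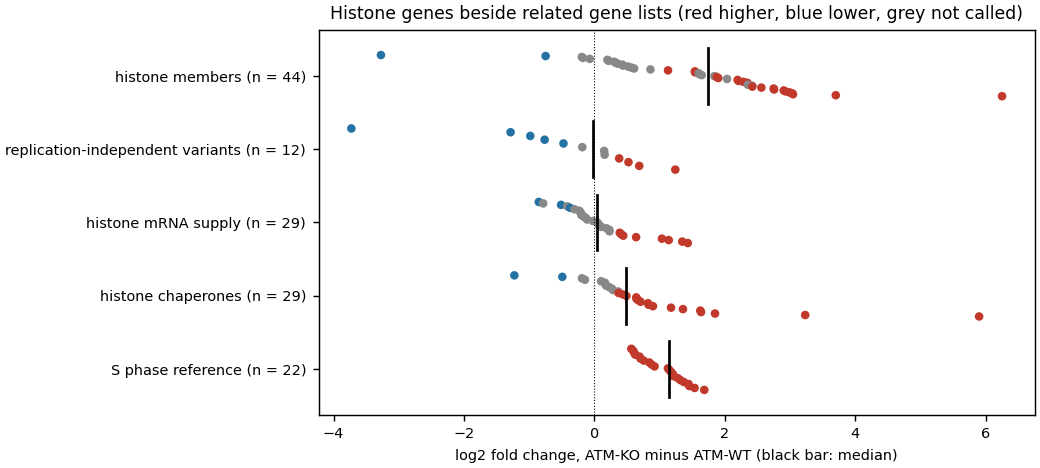
Log2 fold change (ATM-KO minus ATM-WT) of each tested gene among the histone members and in the lists of variants, histone mRNA supply, chaperones and S phase reference genes (red points called higher, blue lower, grey neither), with the median of each as a black bar. The S phase genes all lie above 0 with a median of 1.14, while the variants spread to both sides with a median of -0.02.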

How the data were processed

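RNA of 10 tumours was extracted and made into libraries by a sequencing company, per the labels. Their processed data, as deposited by the authors, are normalized counts in a single table (unit signal: never negative, not whole numbers). The authors used STAR, Salmon and DESeq2, per the submitters' processing notes; no version, setting, build or annotation is given in the sources used here. A column's name shows its genotype but a number absent from the labels, so each column stands for a group and for no particular labelled sample. No count model was run, because whole reads could not be recovered: among values worth 20 reads or fewer, 58.9% to 69.3% per library came out whole to within 0.05.

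The test was limma 3.58.1 (lmFit, then eBayes with a trend; R 4.3.3) on log2(value + 1). It covered the 16517 genes averaging 10 or more across 10 libraries, and p-values were adjusted over them by Benjamini-Hochberg, with 0.05 as threshold. Fold changes on that scale compare means of logs, so for low genes they can be smaller or larger than the log2 ratio of means. For H2bc23 even the sign differed, with a fold change of 0.43 although its mean fell from 16.3 to 11.9. Levels are means ± SD and fold changes carry ± SE, with n = 5 per group. Levels per kilobase used the length of 1 GENCODE M21 transcript (GRCm38) per gene, found for 58 of 59 members. It was the longest of those matched through the RefSeq transcript accessions of the gene. Stem-loops, poly(A) signals and windows of 31 bases were read from that transcript alone, and a shorter form may differ. The windows were compared with all GENCODE M21 transcripts of other genes. The members and gene lists were chosen with earlier results of these data known. Given in full are, in each class, the 2 tested members of highest mean and the 2 called members of largest change, and in other lists up to 4 genes of smallest p, besides Atm. The procedure was also run on simulated data, drawn as normal log2 values from the mean and spread of each gene. Every library was drawn alike, so the simulation did not test calls of low members that depend on A2 or A4. Alternatives covered pseudocount, filter, scaling, eBayes settings, library weights and each library left out. Leaving out A2 and A4 together was chosen after seeing the data. Tables and figures used Python 3.11.15 with numpy 2.4.6, pandas 2.3.3 and matplotlib 3.10.9.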

Additional observations from a re-analysis of the deposited data

Results flagged for a closer look

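In 5 of 54 groups of 5 libraries examined, 1 library stood far from the other 4. For independent, normally distributed values the rule flags about 1 group in 20. That rate need not hold here, with zeros, members named by level or change, and class sums that contain them. H1f1 measured 14.82 in ATM-WT library A2, where the next value was 2.99. H3c10 measured 25.1 in the same shallow library, where the next value was 6.03. H2ac4 measured 11.55 in ATM-KO library A14, where the next value was 25.63. H2ac18 measured 25.92 in ATM-KO library A12 and was at 0 in the other 4. H3c15 measured 43.73 in ATM-KO library A15, where the next value was 62.34.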

How the results depend on the processing

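Of 882 values recomputed under alternatives, 806 kept their direction and side of the threshold or stayed within the set margin. With a mean of at least 50 required, 10 members were tested and 5 were called higher: 0 of H1, 2 of H2A and 1 each of H2B, H3 and H4, because fewer genes were tested. Members called higher ranged from 16 to 26 with 1 library left out, by class 1 to 3 (H1), 4 to 6 (H2A), 3 to 4 (H2B), 4 to 7 (H3) and 2 to 6 (H4). Without a filter 9 H2A genes were called higher, and with quantile normalization 9 H3 genes. Members called lower were 1, and H2A genes called lower 0, with pseudocount 0.5, a mean of at least 50, upper-quartile scaling, quantile normalization, eBayes without trend, robust eBayes and without A2 and A4. With 1 library left out they ranged from 1 to 2 and from 0 to 1. H2ac18 accounts for this. Without A2 and A4, 1 chaperone was called lower. H1f3 reversed to -0.0787 without A4 (range -0.0787 to 1.38 with 1 library left out) and H2bc21 to 0.38 under quantile normalization. Atm reversed to 0.0728 (quantile), 0.12 (without A2), 0.05 (without A15) and 0.0602 (without A2 and A4), with a range of -0.21 to 0.12 with 1 library left out. Without the member of highest mean, the log2 difference of class sums was 1.13 for H1, 1.70 for H2A, 1.08 for H2B (reversed) and 0.93 for all members. The cause of the other changes was not tested. No paired analysis was possible because the columns carry no sample number of the labels. Low members rest on few reads. In A2, 3 reads are worth 7.38 normalized counts, and A4 listed the most members at 0, 27 of them, so low values of both libraries are uncertain.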
